A study of Mus musculus with 12 samples.

Results

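The comparison described here set the distal small intestine of mice labelled Bmpr1a cKO (a conditional knockout) against the proximal small intestine of wild-type (WT) mice. It used 6 of the 12 libraries of the series, 3 cKO distal and 3 WT proximal, and all 17175 genes of the deposited table. The other 6 libraries, 3 cKO proximal and 3 WT distal, entered the fit and are given as levels where they help to place a gene. Total RNA was sequenced from intestine labelled only as small intestine, proximal or distal. The Cre driver, the age and sex of the mice, the exact position of each segment and the cell layers taken are not given in the sources used here. The series asks how epithelial BMP and Wnt signals bear on villus height in the different segments. Genotype and segment both differ between the 2 groups, so within this comparison the part of each cannot be told apart. No label says that replicate libraries came from different animals. The spread that enters each p-value is that between libraries, which may be technical.

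The protein made by Bmpr1a is a type I receptor of the bone morphogenetic protein (BMP) pathway. In the gut, BMPs bind paired type I and type II receptors, the type I receptor phosphorylates SMAD proteins, and these switch on genes such as the Id family. BMP signals are strong along the villus and weak at the crypt base, where Wnt signals keep stem cells dividing. Along its length the small intestine is divided by function. The proximal part takes up iron, calcium, folate, fat and sugar under transcription factors such as Pdx1 and Gata4, and the distal part recovers bile acids and vitamin B12 and carries more antibacterial cells.

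Values are scaled read counts (a read count plus 1, divided by a size factor of the library), listed for libraries 1, 2 and 3 of a group. A gene with no reads has a value near 1, from 0.83 to 1.06 in cKO distal and 1.05 to 1.12 in WT proximal libraries. Log2 fold changes (log2FC) are cKO distal over WT proximal on the log2(value + 1) scale, with a standard error (SE), and understate the change of genes with few reads. The test was limma with Benjamini-Hochberg adjustment over all 17175 genes, called at an adjusted p under 0.05. Depth was 17722756, 17641230 and 15225731 recovered reads in the cKO distal libraries, against 16381314, 14840053 and 15875722 in the WT proximal libraries. The second principal component over the 12 libraries, with 26.2% of the variance, had scores of -84.44, -81.76 and -69.01 in cKO distal and 57.21, 71.23 and 70.6 in WT proximal libraries. Mitochondrial transcripts took 11.45%, 9.953% and 27.67% of the reads in cKO distal libraries, against 17.37%, 26.05% and 24.88% in WT proximal libraries, so cKO distal library 3 stood apart from the rest of its group. cKO distal library 1 had 0 reads of the Y-linked genes Ddx3y, Eif2s3y, Kdm5d and Uty, unlike the other 5 libraries of the 2 groups. The epithelial marker Vil1, which encodes the villin of the microvillus core, had 59564, 46985 and 29761 scaled reads in cKO distal and 47573, 43088 and 40311 in WT proximal libraries, which overlapped.

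The targeted receptor gene gave no clear check of the labels. Bmpr1a (chr14:34410734-34503341, minus strand, mm10) had 511, 668 and 486 scaled reads in cKO distal libraries, 911, 833 and 1087 in cKO proximal, 438, 527 and 631 in WT distal and 1029, 772 and 1019 in WT proximal libraries. The cKO distal libraries lay below the WT proximal ones (log2FC -0.76, SE 0.19, adjusted p = 0.0105), a call lost without both cKO libraries numbered 1, and they overlapped with the WT distal libraries, as the cKO proximal libraries did with the WT proximal ones. Counts are of the whole gene, and the part of Bmpr1a that the conditional allele removes is not given in the sources used here, so these counts cannot show whether the receptor was lost.

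Of the 17175 genes, 4470 passed the test (26.0%), 2233 higher (13.0%) and 2237 lower (13.0%) in cKO distal libraries. At least 2-fold changes numbered 1296 higher and 1874 lower, and at least 16-fold changes 60 higher and 86 lower. The libraries of the groups did not overlap for 39.7% of all genes, 20.5% higher and 19.1% lower. The median log2 fold change of all genes was 0.04. Each list below is read against these shares. Tissue RNA was measured in bulk, so fewer cells of a type and less RNA per cell cannot be told apart in any of these values. Another scaling moved the balance of the calls: with TMM scaling 2014 genes were higher and 2644 lower, and the median of all genes was -0.038.

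**Figure D1:**
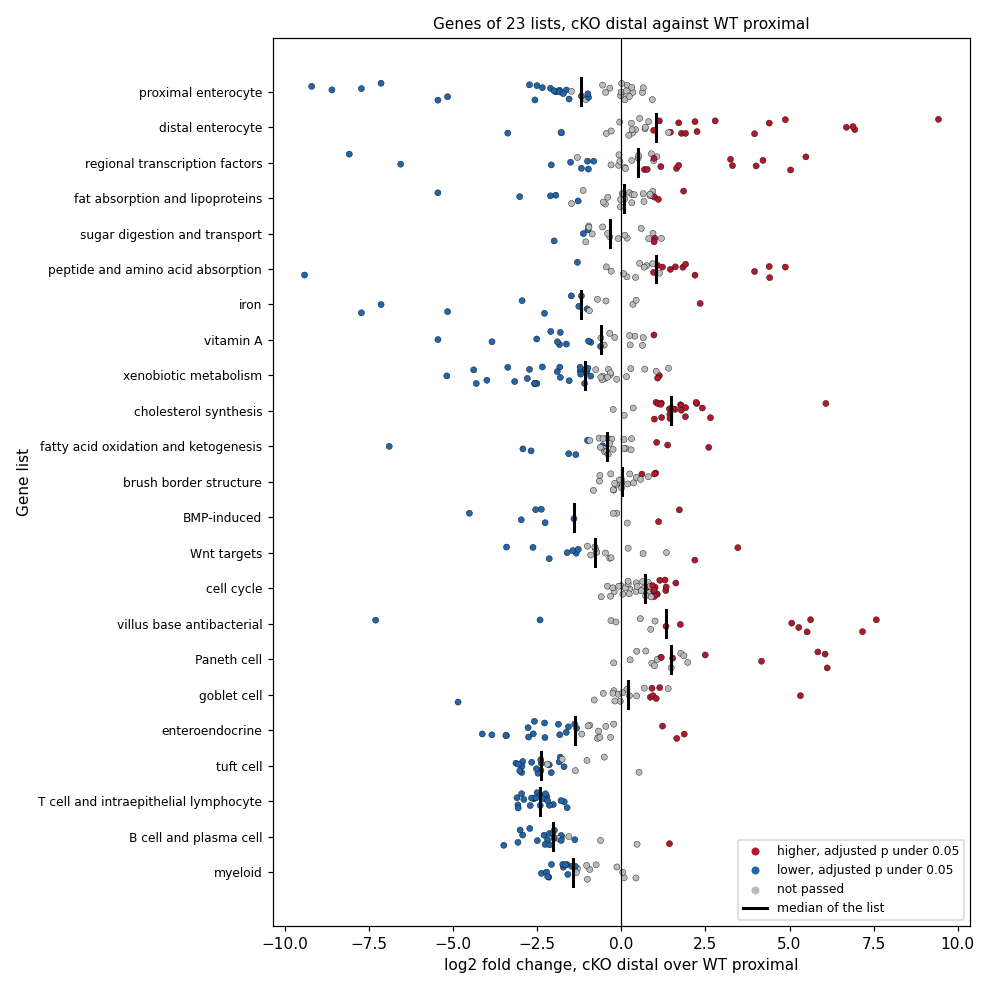
Log2 fold change, cKO distal over WT proximal, of each measured gene of 23 gene lists (one row per list, one point per gene). Red points passed the test as higher, blue points as lower and grey points did not pass, and the black bar is the list's median. All T cell genes and most tuft cell genes lie left of 0, and most cholesterol synthesis genes lie right of 0. Proximal enterocyte genes range from far left of 0 to slightly right of it, with the list's median left of 0.

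Fabp6, Slc10a2 and Fgf15, genes of ileal bile acid recovery, were far higher in cKO distal than in WT proximal libraries, and the lists around them moved less and in part the other way. Distal enterocyte genes numbered 16 higher and 2 lower of 32 measured, with a median log2 fold change of 1.05. Of 14 genes of ileal bile acid handling, 6 were higher and 3 lower, with a median of 1.07. Fabp6 (chr11:43596049-43601540, minus strand, mm10), the bile acid binding protein of ileal enterocytes, had 65296, 90664 and 24901 scaled reads in cKO distal libraries, against 7.37, 84.2 and 632 in WT proximal libraries (log2FC 9.43, SE 1.07, adjusted p = 3.59e-05). The groups did not overlap, and the WT proximal libraries themselves spread widely, with library 1 lowest and library 3 highest. Slc10a2, the apical sodium-dependent bile acid transporter, had 1703, 1504 and 2046 scaled reads in cKO distal, against 8.42, 12.3 and 21.5 in WT proximal libraries (log2FC 6.94, SE 0.37, adjusted p = 5.68e-08). Fgf15, the hormone that ileal cells release on bile acid uptake to restrain bile acid synthesis in liver, had 124, 146 and 542 scaled reads in cKO distal libraries and 0 reads in all 3 WT proximal libraries. Against a floor of 3 reads per library it was at least 83-fold higher (adjusted p = 1.7e-05), and cKO distal library 3 was the highest of its group.

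The 300 bases around the start site (250 before, 50 after) are shown for 4 genes that mark the segments in this comparison. They are Fabp6 and Slc10a2, high in cKO distal, and Fabp1 and Tmprss15, high in WT proximal. Sequences are from RefSeq on GRCm38.p6, 5′ to 3′ on the gene's strand. Capitals mark matches, on either strand, to GGTNANTNACC (an inverted repeat of the type bound by the bile acid receptor FXR) or CATAAA (the type bound by CDX homeobox factors).
Fabp6 promoter (chr11:43601513-43601812, minus strand): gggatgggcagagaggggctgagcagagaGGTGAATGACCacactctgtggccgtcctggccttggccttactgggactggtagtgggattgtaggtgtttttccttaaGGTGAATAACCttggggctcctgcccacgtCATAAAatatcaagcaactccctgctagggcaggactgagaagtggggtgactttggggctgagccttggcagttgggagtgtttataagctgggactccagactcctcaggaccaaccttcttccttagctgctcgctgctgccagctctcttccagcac
Slc10a2 promoter (chr8:5105238-5105537, minus strand): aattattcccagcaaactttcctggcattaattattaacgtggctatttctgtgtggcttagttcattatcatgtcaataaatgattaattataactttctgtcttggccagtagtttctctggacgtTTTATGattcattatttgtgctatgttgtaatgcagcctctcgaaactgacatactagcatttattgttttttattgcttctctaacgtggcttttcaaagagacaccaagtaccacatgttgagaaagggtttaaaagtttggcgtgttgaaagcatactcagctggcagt
Fabp1 promoter (chr6:71199629-71199928, plus strand): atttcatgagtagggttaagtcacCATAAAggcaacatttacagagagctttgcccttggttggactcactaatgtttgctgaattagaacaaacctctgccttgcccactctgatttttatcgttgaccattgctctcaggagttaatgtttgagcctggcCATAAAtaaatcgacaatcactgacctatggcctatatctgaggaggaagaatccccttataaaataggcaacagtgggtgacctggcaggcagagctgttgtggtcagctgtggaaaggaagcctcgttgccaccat
Tmprss15 promoter (chr16:79091048-79091347, minus strand): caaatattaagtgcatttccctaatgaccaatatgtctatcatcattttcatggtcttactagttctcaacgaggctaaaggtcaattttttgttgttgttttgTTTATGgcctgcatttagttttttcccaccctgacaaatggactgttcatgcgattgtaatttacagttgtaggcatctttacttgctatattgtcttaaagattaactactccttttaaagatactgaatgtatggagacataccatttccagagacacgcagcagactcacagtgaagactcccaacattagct
The Fabp6 window held 2 matches to the inverted repeat, starting 221 and 141 bases before the start site, a motif found in 86 of 32851 promoters (0.262%). None of the other 3 windows held these letters. CATAAA matched once each in Fabp6, Slc10a2 and Tmprss15 and 2 times in Fabp1, and it occurred in 11.9% of all promoters. AGATAA, the type bound by GATA factors, was in 11.2% of all promoters and in none of these 4 windows, which says only that those letters are absent there.

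Other bile acid genes had smaller differences or the opposite direction. Nr1h4, which encodes FXR itself, had 2264, 1887 and 1182 scaled reads in cKO distal, against 499, 547 and 532 in WT proximal libraries (log2FC 1.71, SE 0.24, adjusted p = 0.00023). Slc51a, one chain of the basolateral bile acid exporter, had 20741, 15602 and 8607 in cKO distal and 5352, 3759 and 3369 in WT proximal libraries (log2FC 1.79, SE 0.39, adjusted p = 0.00424), without overlap. Its partner chain Slc51b overlapped between groups, with 885, 924 and 383 in cKO distal and 550.4, 412 and 318 in WT proximal libraries (adjusted p = 0.132), and among the alternatives passed only when cKO distal library 3 was left out. Nr5a2, a nuclear receptor of bile acid and steroid metabolism, was higher (log2FC 2.05, SE 0.33, adjusted p = 0.000533). Nr0b2, the co-repressor that FXR induces in liver, was lower, with 3.18, 9.96 and 31.9 in cKO distal and 138, 140.3 and 84.9 in WT proximal libraries (log2FC -3.38, SE 0.66, adjusted p = 0.00209). Slc27a2, an acyl-CoA synthetase that also acts on bile acids, was lower as well (log2FC -1.38, SE 0.32, adjusted p = 0.00662). The organic anion exporters Abcc2 and Abcc3 did not pass (adjusted p = 0.34 and 0.861), nor did Abcc4 (0.107, past the threshold without cKO distal library 2) or the bile acid receptor Gpbar1 (0.414), which had under 6 scaled reads in every library of the 2 groups.

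The 12 genes with the largest rise included transporters and brush border enzymes of the distal intestine beside Fabp6 and Slc10a2. Plb1, a brush border phospholipase, had 21345, 11279 and 4392 scaled reads in cKO distal, against 4.21, 10.1 and 39.8 in WT proximal libraries (log2FC 9.58, SE 0.78, adjusted p = 1.88e-06). Slc5a8, a sodium-coupled transporter of short-chain fatty acids, had 2943, 3086 and 1796 in cKO distal and 6.31, 2.24 and 12.9 in WT proximal libraries (log2FC 8.52, SE 0.42, adjusted p = 2.8e-08). Both genes were free of overlap and high in WT distal libraries too, with means of 7729 ± 6536 and 1633 ± 365 (SD, n = 3). Slc34a2, a sodium-phosphate cotransporter, had 4539.8, 5206 and 3119.7 in cKO distal and 323, 10.1 and 8.6 in WT proximal libraries (log2FC 7.01, SE 0.92, adjusted p = 0.000135), with WT proximal library 1 above the other two. Slc25a48, a mitochondrial carrier, Mgat4c, an N-glycan branching enzyme of the Golgi, and Tmigd1, an immunoglobulin-domain protein of the brush border, had log2FC values of 7.59, 7.49 and 6.89 (adjusted p = 8.55e-08, 1e-06 and 1.53e-06). Eno1b, a copy of the glycolytic enzyme gene Eno1, had 2468, 1219 and 1282 in cKO distal and 8.42, 10.1 and 7.52 in WT proximal libraries (log2FC 7.35, SE 0.41, adjusted p = 8.66e-08). Its level followed genotype over the 4 groups, with means of 2502 ± 197 in cKO proximal and 5.7 ± 5.11 in WT distal libraries (SD, n = 3). Reads of Eno1b and Eno1 can be shared, because the copies are nearly identical, so its level is uncertain.

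Factors that set position along the gut differed in both directions. Of 33 measured regional transcription factors, 12 were higher and 8 lower, with a median log2 fold change of 0.50. Pdx1, the homeobox factor of duodenum and pancreas, had 5.3, 2.49 and 3.19 scaled reads in cKO distal, against 873, 1375 and 1540.1 in WT proximal libraries (log2FC -8.09, SE 0.64, adjusted p = 1.49e-06). Onecut2, a cut homeobox factor of the duodenum, had 7.42, 18.3 and 8.51 in cKO distal and 1147, 1038 and 1083 in WT proximal libraries (log2FC -6.56, SE 0.61, adjusted p = 6.94e-06). Neither gene's groups came near each other. Gata4, the zinc finger factor that marks proximal enterocytes, kept a measurable level, with 1442, 1172 and 713 in cKO distal, against 3514, 3005 and 2639.5 in WT proximal libraries (log2FC -1.51, SE 0.23, adjusted p = 0.000444). Gata6, its relative expressed along the whole small intestine, had 1087, 1045 and 1210 in cKO distal and 2264, 1647 and 2037 in WT proximal libraries (log2FC -0.82, SE 0.18, adjusted p = 0.00408).

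On the distal side, Osr2, an odd-skipped zinc finger factor, had 2064, 2161 and 1122 scaled reads in cKO distal, against 65.2, 49.4 and 41.9 in WT proximal libraries (log2FC 5.03, SE 0.42, adjusted p = 2.41e-06). The Hoxb cluster split along its own order. Hoxb9 had 75.2, 63.1 and 166 scaled reads in cKO distal libraries and 0 reads in all 3 WT proximal libraries, at least 30.9-fold higher (adjusted p = 1.59e-06). Hoxb8, Hoxb7 and Hoxb6 had log2FC values of 4.01, 3.25 and 4.21 (adjusted p = 9.03e-05, 0.00068 and 1.29e-05). Hoxb5 did not pass (0.122; it passed without cKO distal library 2), Hoxb3 did not (0.937), and Hoxb4 was lower (log2FC -1.19, SE 0.41, adjusted p = 0.0466), a call lost without cKO distal library 1 or 3 or WT proximal library 1, 2 or 3 (highest adjusted p 0.134), with pseudocount 0, edgeR, voom, the 6 libraries alone, the replicate numbers as a block or the mitochondrial share as a covariate and without both cKO libraries numbered 1. All 3 had under 45 scaled reads in every library of the 2 groups. The 6 Hoxa, Hoxc and Hoxd genes listed, Hoxa3, Hoxa4, Hoxa5, Hoxa7, Hoxc8 and Hoxd8, stayed under 30 scaled reads in every library and did not pass; Hoxa5 passed without cKO distal library 3 or WT proximal library 3, and Hoxc8 without cKO distal library 1.

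Cdx1, a homeobox factor of intestinal identity, was higher, with 3673, 3292 and 2818 in cKO distal and 1025, 1008 and 1087 in WT proximal libraries (log2FC 1.64, SE 0.16, adjusted p = 1.26e-05). Its relative Cdx2 had 3995, 3914 and 2313 in cKO distal and 2076, 1968 and 1787 in WT proximal libraries (log2FC 0.77, SE 0.21, adjusted p = 0.0159), a call lost without cKO distal library 1 or 2 or WT proximal library 3 (highest adjusted p 0.0692) and without both cKO libraries numbered 1. Isx, the intestine-specific homeobox repressor of vitamin A uptake, was higher (log2FC 0.97, SE 0.16, adjusted p = 0.000693). Gata5 was higher (log2FC 0.69, SE 0.22, adjusted p = 0.0303), lost without cKO distal library 1 or 2 or WT proximal library 1, 2 or 3 (highest adjusted p 0.119), with the mitochondrial share as a covariate and without both cKO libraries numbered 1. Klf4, a zinc finger factor of differentiated villus cells, was lower (95% interval of the log2FC -1.51 to -0.50, adjusted p = 0.00684). The general enterocyte regulators Hnf4a, Hnf4g, Maf and Creb3l3 did not pass (adjusted p = 0.131, 0.423, 0.936 and 0.909), although Hnf4a passed in DESeq2. For Creb3l3 the 95% interval of the difference (-0.93 to 0.77) lay within 2-fold either way, as it did for 35.5% of all genes.

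**Figure D2:**
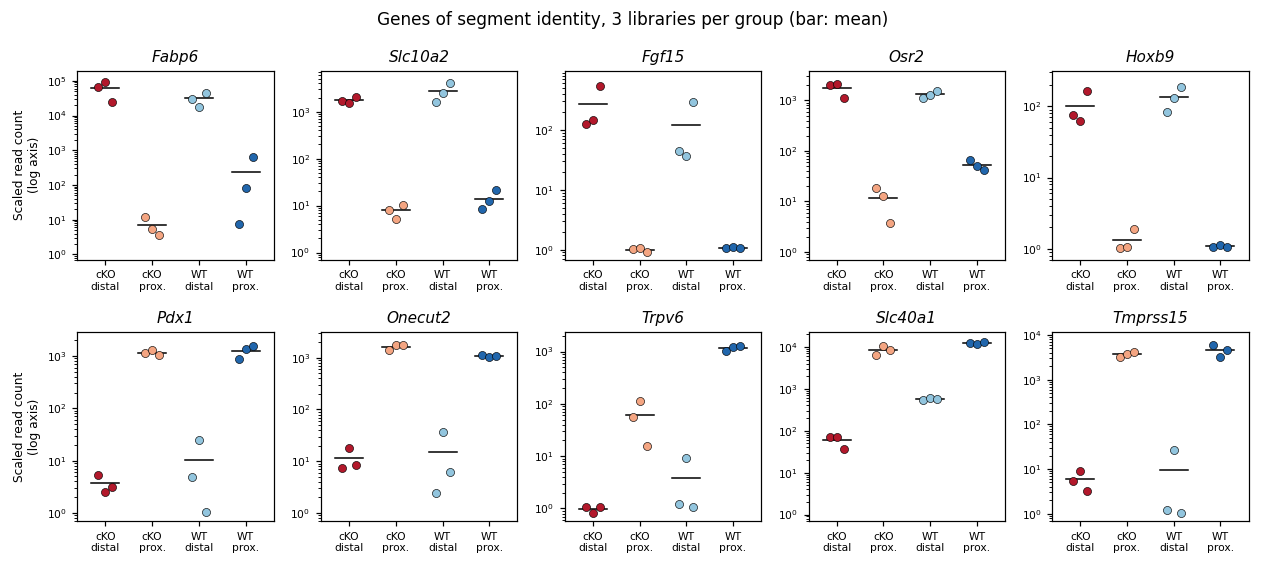
Scaled read count (log axis) of 10 segment genes in the 3 libraries of each group, one point per library and a bar at the mean, with groups ordered cKO distal, cKO proximal, WT distal and WT proximal. Fabp6, Slc10a2, Fgf15, Osr2 and Hoxb9 are high in both distal groups, and Pdx1, Onecut2, Slc40a1 and Tmprss15 are high in both proximal groups. Trpv6 lies between in cKO proximal libraries and is at 0 reads in cKO distal libraries.

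Trpv6, S100g, Slc40a1 and Cybrd1, genes of duodenal calcium and iron uptake, were far lower in cKO distal than in WT proximal libraries, and Slc11a2, another iron gene, differed much less. Of 39 proximal enterocyte genes, 21 were lower and 18 did not pass, with a median log2 fold change of -1.19. Without WT proximal library 1, 1 gene of that list was higher. Trpv6, the apical calcium channel, had 0 reads in all 3 cKO distal libraries, against 1043, 1212 and 1262 scaled reads in WT proximal libraries, at least 397-fold lower (adjusted p = 8.67e-07). S100g, the calcium carrier calbindin-D9k, had 270.2, 116 and 95.7 in cKO distal and 40953, 63784 and 69219 in WT proximal libraries (log2FC -8.60, SE 0.59, adjusted p = 6.61e-07). Slc40a1, the iron exporter ferroportin, had 71, 71.4 and 36.2 in cKO distal, against 12230, 11573 and 12990 in WT proximal libraries (log2FC -7.73, SE 0.25, adjusted p = 4.36e-10). The mean of Slc40a1 was 8485 ± 2186 in cKO proximal and 578 ± 47.2 in WT distal libraries (SD, n = 3), so the cKO distal libraries held the lowest levels of the 4 groups. Cybrd1, the duodenal ferric reductase, had 9.54, 6.64 and 17 in cKO distal and 1105, 1321 and 2795 in WT proximal libraries (log2FC -7.14, SE 0.48, adjusted p = 4.79e-07). Slc11a2, the apical iron importer, was named after its value was seen, with 1668, 1049 and 980.4 in cKO distal and 1502, 3581 and 3772 in WT proximal libraries (log2FC -1.19, SE 0.34, adjusted p = 0.0199), overlapping, a call lost without cKO distal library 2 or 3 or WT proximal library 2 or 3 (highest adjusted p 0.0867). Slc46a1, the proton-coupled folate transporter, had 412, 248 and 207 in cKO distal and 12217, 7837 and 10343 in WT proximal libraries (log2FC -5.17, SE 0.24, adjusted p = 2.02e-08). Scarb1, a scavenger receptor for lipids and carotenoids, was lower too (log2FC -5.45, SE 0.36, adjusted p = 4.79e-07). Except for Slc11a2, none of these genes overlapped between groups.

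Most genes of iron handling were lower, 9 of 15, and 1 was higher, with a median of -1.19. Epas1, the hypoxia factor that drives duodenal iron genes, had 527, 417 and 522 in cKO distal, against 1708, 2453 and 3187 in WT proximal libraries (log2FC -2.29, SE 0.24, adjusted p = 1.83e-05). Ireb2, an iron-sensing RNA-binding protein, was lower (log2FC -1.49, SE 0.18, adjusted p = 8.33e-05). The storage protein genes were lower as well, and they are named here after their values were seen. Fth1, the ferritin heavy chain, had 22864, 21155 and 12646 in cKO distal and 138210, 153790 and 132680 in WT proximal libraries (log2FC -2.95, SE 0.40, adjusted p = 0.000164). Ftl1, the light chain, had 21850, 20488 and 17237 in cKO distal and 43341, 41364 and 35710 in WT proximal libraries (log2FC -1.02, SE 0.29, adjusted p = 0.0183), a call lost without WT proximal library 2 (highest adjusted p 0.0612) and with the 6 libraries alone. Tfrc, the transferrin receptor, went the other way, with 2197, 2039 and 1318 in cKO distal and 308, 297 and 489 in WT proximal libraries (log2FC 2.34, SE 0.25, adjusted p = 2.2e-05), without overlap. Heph, the ferroxidase that works with ferroportin, did not pass (95% interval -0.33 to 1.02), nor did Hmox1, the haem oxygenase (adjusted p = 0.465), nor Aco1, the other iron-sensing protein of the Ireb2 type (0.135, without overlap and lower, and past the threshold with TMM scaling, edgeR, DESeq2, voom and the mitochondrial share as a covariate).

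The genes with the largest fall outside mineral uptake were of several kinds. Akp3, the duodenal alkaline phosphatase, had 51.9, 141 and 71.2 scaled reads in cKO distal, against 170490, 132050 and 185940 in WT proximal libraries (log2FC -10.95, SE 1.12, adjusted p = 1.47e-05). Alpi, the alkaline phosphatase of the neighbouring locus, had 5938, 4861 and 5033 in cKO distal and 103420, 71573 and 89358 in WT proximal libraries (log2FC -4.05, SE 0.32, adjusted p = 1.72e-06). The phosphatases are close copies, so reads may be split between them. Tmprss15, the enteropeptidase that activates trypsinogen and whose promoter is printed above, had 5.3, 9.13 and 3.19 in cKO distal and 5805, 3276 and 4492 in WT proximal libraries (log2FC -9.42, SE 0.73, adjusted p = 1.28e-06). Sult6b2, a sulfotransferase, Slc16a9, a monocarboxylate and carnitine transporter, and Otop3, a proton channel, had log2FC values of -8.64, -8.51 and -7.93 (adjusted p = 4.16e-05, 6.08e-07 and 1e-06). Ctse, the protease cathepsin E of gastric and duodenal epithelium, had 7.42, 0.83 and 8.51 in cKO distal and 927, 1023 and 1573 in WT proximal libraries (log2FC -7.76, SE 0.51, adjusted p = 4.79e-07). Reg1, a lectin of pancreas and proximal gut, had 193, 324 and 118 in cKO distal and 27183, 32189 and 33769 in WT proximal libraries (log2FC -7.30, SE 0.78, adjusted p = 2.26e-05).

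Several stomach and pancreas transcripts were also lower in cKO distal than in WT proximal libraries. Of 8 stomach and Brunner gland genes, 5 were lower and 1 higher (median -4.03), and their summed level was 29.9 to 54.2 in cKO distal and 109 to 2125 in WT proximal libraries. Gkn1, a gastric surface cell gene, had 1.06, 0.83 and 5.32 in cKO distal and 1.05, 443 and 771 in WT proximal libraries, so WT proximal library 1 held 0 reads and overlapped with the cKO distal libraries. Its call (log2FC -4.95, SE 1.67, adjusted p = 0.042) was lost without cKO distal library 1, 2 or 3 or WT proximal library 2 or 3 (highest adjusted p 0.173), with TMM scaling, voom, the 6 libraries alone or the mitochondrial share as a covariate and without both cKO libraries numbered 1. Leaving out any 1 library but WT proximal library 1 left 3 genes of the list lower, and 2 were lower with voom. Pgc, the gastric and duodenal pepsinogen C, had 0 reads in all 3 cKO distal libraries and 85.2, 47.1 and 91.4 in WT proximal libraries, at least 24.9-fold lower (adjusted p = 1.38e-06). Atp4a, the parietal cell proton pump, was under 13 scaled reads in every library of the 2 groups and higher in cKO distal (log2FC 1.98, SE 0.42, adjusted p = 0.00376), a call lost with a mean value of at least 10. Of 10 pancreatic acinar genes, 4 were lower (median -3.36), with summed levels of 267 to 492 in cKO distal and 884 to 1602 in WT proximal libraries. The acinar genes Prss2, Try4, Cela2a and Cel had 0 reads in every cKO distal library, and Cpa1 had 2.12, 0.83 and 3.19 in cKO distal and 5.26, 85.3 and 33.3 in WT proximal libraries (adjusted p = 0.0536, past the threshold without WT proximal library 1). The lower count was 2 without cKO distal library 1 or 2 and 1 without WT proximal library 2; it was 7 with DESeq2, 9 with the 6 libraries alone or the replicate numbers as a block, and 2 once mitochondrial share was a covariate. In 9 of the 10 genes every cKO distal library was below every WT proximal library. WT proximal library 1, with no Gkn1 reads but a summed acinar level of 884, held 5805 scaled reads of Tmprss15 and 927 of Ctse. The part of stomach and pancreas RNA in the levels of these and the other proximal genes was not tested.

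The proximal enterocyte list did not fall as one. For 4 of its 39 genes the 95% interval lay within 2-fold either way, against 35.5% of all genes. Mttp, Slc5a1 and Acsl5, given next, did not pass but were not among these 4, as their intervals reached beyond 2-fold. Mttp, the triglyceride transfer protein of chylomicron assembly, had 71609, 27236 and 48808 scaled reads in cKO distal, against 50141, 28231 and 35137 in WT proximal libraries (95% interval -0.63 to 1.26). Slc5a1, the sodium-glucose cotransporter, had 85681, 37300 and 45407 in cKO distal and 54777, 39476 and 53943 in WT proximal libraries (95% interval -0.95 to 1.16). Acsl5, an acyl-CoA synthetase of fat uptake, had 27471, 11102 and 21535 in cKO distal and 18946, 12979 and 16247 in WT proximal libraries (95% interval -0.66 to 1.14). The groups overlapped for all 3 genes, and their WT distal means were lower, at 9536 ± 5209.5, 19963 ± 13836 and 5054 ± 3542 (SD, n = 3). A further 4 genes were named after their values were seen. Treh, the disaccharidase trehalase, had 16745, 6494 and 12443 in cKO distal, a mean of 1414 ± 1084 in WT distal and 15227, 7183 and 8632 in WT proximal libraries. Mogat2, an acyltransferase that rebuilds triglyceride, had 10909, 7556 and 4187 in cKO distal and 8181, 5916 and 6741 in WT proximal libraries (95% interval -0.69 to 0.74). Slc27a4, a fatty acid transport protein, and Slc2a5, the fructose transporter, had intervals of -0.91 to 0.86 and -1.15 to 0.46. These intervals allow differences of up to 1.26 on the log2 scale, so the tests do not show equal levels.

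**Figure D3:**
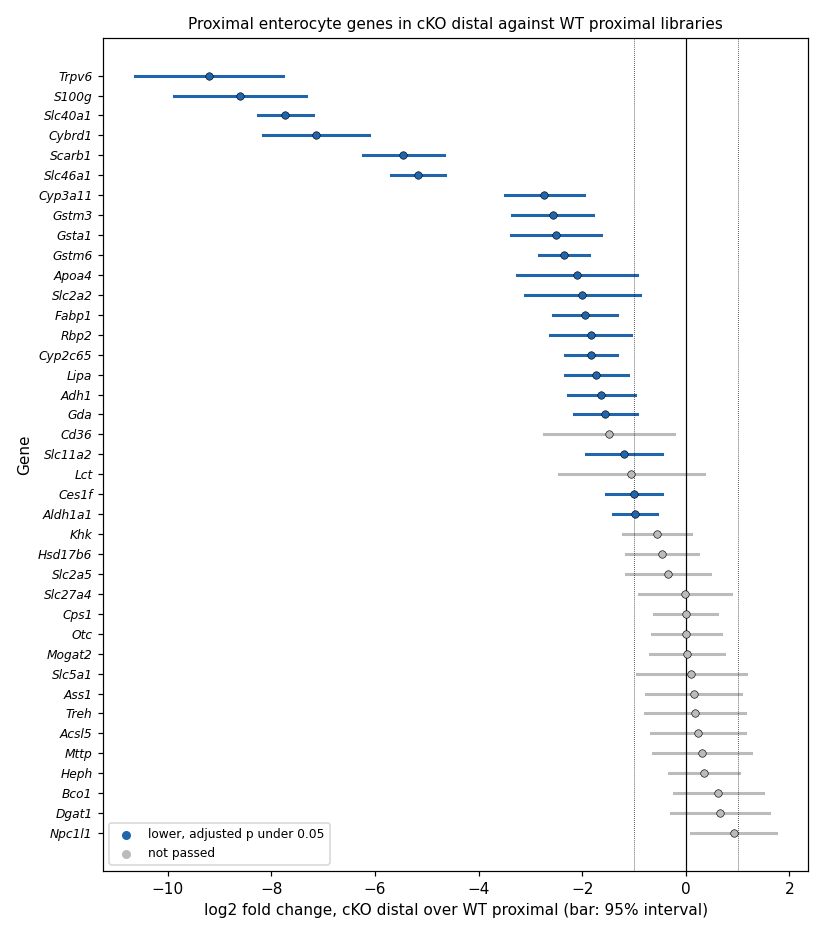
Log2 fold change, cKO distal over WT proximal, with its 95% interval, of the 39 proximal enterocyte genes, sorted from most to least lowered (dotted lines at 2-fold either way). Blue genes passed as lower and grey genes did not pass. Trpv6, S100g, Slc40a1, Cybrd1, Scarb1 and Slc46a1 stand far to the left, and genes of sugar, fat and nitrogen metabolism straddle 0.

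By nutrient, the picture differed from class to class. Of 28 genes of fat absorption and lipoproteins, 3 were higher (10.7%) and 5 lower (17.9%), near the 13.0% of all genes each way (median 0.09). Fabp2, the fatty acid carrier of all small intestine, had 83068, 85895 and 79243 in cKO distal and 69345, 84890 and 77281 in WT proximal libraries (95% interval -0.87 to 1.08). Fabp1, the liver-type carrier whose promoter is printed above, had 12473, 8547 and 5396 in cKO distal, against 33881, 31176 and 31310 in WT proximal libraries (log2FC -1.95, SE 0.29, adjusted p = 0.000295), without overlap. Apoc2, a lipoprotein lipase activator, was lower (log2FC -3.02, SE 0.28, adjusted p = 6.45e-06), and Apoa4, a chylomicron apolipoprotein, had 11157, 7034 and 21163 in cKO distal and 106250, 29538 and 42231 in WT proximal libraries (log2FC -2.11, SE 0.54, adjusted p = 0.011), a call lost without cKO distal library 2 (highest adjusted p 0.0553). Abca1, the cellular cholesterol exporter, was higher, with 3919, 2458 and 2340.3 in cKO distal and 982, 548 and 889.9 in WT proximal libraries (log2FC 1.85, SE 0.26, adjusted p = 0.000244). Fat list counts were 1 to 6 higher and 3 to 7 lower when 1 library was left out. The extremes were 1 higher without cKO distal library 1 or WT proximal library 2, 6 higher without WT proximal library 1, and 3 lower without cKO distal library 2. With the mitochondrial share as a covariate, 1 was higher and 9 lower.

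Of 19 sugar genes, 2 were higher (10.5%) and 3 lower (15.8%), near the 13.0% of all genes each way (median -0.34). Slc2a2, the basolateral glucose transporter, had 3534, 2318 and 2229 in cKO distal and 12089, 8354 and 11517 in WT proximal libraries (95% interval of the log2FC -3.11 to -0.88, adjusted p = 0.0119). Fbp1, an enzyme of gluconeogenesis, was lower (log2FC -0.99, SE 0.26, adjusted p = 0.0123), a call lost without WT proximal library 3 (highest adjusted p 0.0526). Sis and Mgam, the brush border disaccharidases, were above WT proximal in every cKO distal library but did not pass (adjusted p = 0.0882 and 0.256), although Sis passed without cKO distal library 3. The 2 genes that were higher were Mlxipl, a glucose-sensing transcription factor, and G6pc, the last enzyme of glucose release. No gene of the list was higher in limma without cKO distal library 1, WT proximal library 2 or WT proximal library 3, and 1 was without cKO distal library 2, with TMM scaling or with voom. The lower count fell to 1 without WT proximal library 3.

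Peptide and amino acid absorption genes were more often higher: 12 of 24 were higher and 2 lower, with a median of 1.02. Mep1a, a subunit of the brush border metalloprotease meprin, had 22964, 14937 and 15457 in cKO distal, against 966, 309 and 698 in WT proximal libraries (log2FC 4.88, SE 0.38, adjusted p = 1.38e-06). Naaladl1, an ileal dipeptidase, had 121390, 59215 and 61609 in cKO distal and 6582, 2028 and 3538 in WT proximal libraries (log2FC 4.40, SE 0.54, adjusted p = 7.72e-05), and its WT distal mean was 33409 ± 23386 (SD, n = 3). Slc1a1, a glutamate and aspartate transporter, had 1497, 1168 and 549.7 in cKO distal and 36.8, 49.4 and 51.6 in WT proximal libraries (log2FC 4.41, SE 0.41, adjusted p = 7.62e-06). No library of one group reached the other for these 3 genes. Xpnpep2, an aminopeptidase for proline-containing peptides, and Cndp2, a cytosolic dipeptidase, were higher (log2FC 3.96, SE 0.41, adjusted p = 1.72e-05, and log2FC 1.61, SE 0.30, adjusted p = 0.00153). The carboxypeptidase Ace and the neutral amino acid transporter Slc6a19 did not pass (adjusted p = 0.162 and 0.555). Mme, a neutral endopeptidase, was the second lower gene after Tmprss15 and was noted after its value was seen (log2FC -1.30, SE 0.43, adjusted p = 0.0399, lost without cKO distal library 1, 2 or 3 or WT proximal library 1 or 3 (highest adjusted p 0.128) and without both cKO libraries numbered 1). The higher count was 7 without both cKO libraries numbered 1, and the lower count was 1 without any 1 library but WT proximal library 2.

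Vitamin A and detoxification genes were mostly lower. Of 21 vitamin A genes, 11 were lower and 1, Isx, higher (median -0.62). Rbp2, the retinol carrier of enterocytes, had 21453, 13305 and 15770 in cKO distal, against 56415, 61066 and 59527 in WT proximal libraries (log2FC -1.84, SE 0.36, adjusted p = 0.00231). Lrat, which esterifies retinol for export in chylomicrons, had 51.9, 44 and 31.9 in cKO distal and 299, 185 and 261 in WT proximal libraries (log2FC -2.52, SE 0.35, adjusted p = 0.000209). The retinol dehydrogenases Adh4 and Adh1 had log2FC values of -3.85 and -1.63 (adjusted p = 3.94e-05 and 0.00145). Dhrs3, a retinal reductase, and Aldh1a2, a retinoic acid synthase, did not pass (95% intervals -0.10 to 0.90 and -1.80 to 0.58).

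Of 42 genes of xenobiotic metabolism, 24 were lower and 2 higher (median -1.07). Cyp2c66, a cytochrome P450, had 310.4, 156 and 72.3 in cKO distal and 4496, 2709.6 and 2699 in WT proximal libraries (log2FC -4.39, SE 0.40, adjusted p = 5.6e-06). Gstm1, a glutathione transferase, had 1178, 971 and 1524 in cKO distal and 13885, 12777 and 7192 in WT proximal libraries (log2FC -3.17, SE 0.27, adjusted p = 3.51e-06). Cyp2c29, Gsta2, Gstm6 and Cyp2c65, of the same families, had log2FC values of -5.19, -4.31, -2.35 and -1.83 (adjusted p = 6.71e-06, 1.34e-05, 9.54e-06 and 9.71e-05). All 6 genes were free of overlap, and for Gstm6 the WT distal mean was lower still, at 80.8 ± 22.2 (SD, n = 3). Gstm1, Gsta2, Cyp2c29 and Cyp2c65 were also higher in cKO distal than in WT distal libraries (log2FC 1.52, 2.72, 1.48 and 1.37). The adjusted p of these genes was 0.0013, 0.00056, 0.037 and 0.00085, and Cyp2c66 did not pass there (0.447). Reads of these gene families can be shared between copies, so single members are uncertain. The 2 higher genes, Abcg2, an efflux pump, and Cyp4f14, another P450, did not keep their calls without cKO distal library 1, WT proximal library 2 or WT proximal library 3, where 0 genes were higher; 1 was higher without cKO distal library 2, and 4 with DESeq2.

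Cholesterol synthesis rose almost throughout: 21 of 24 genes were higher, against 13.0% of all genes, with a median of 1.48. The counts without 1 library were 20 or 21. Sqle, the squalene epoxidase, had 3256, 2298 and 1614 scaled reads in cKO distal, against 385, 301 and 418 in WT proximal libraries (log2FC 2.65, SE 0.27, adjusted p = 1.34e-05). Cyp51, the lanosterol demethylase, had 3059.7, 2688 and 1737 in cKO distal and 617, 419.8 and 539.5 in WT proximal libraries (log2FC 2.22, SE 0.25, adjusted p = 3.38e-05). Mvd, Idi1 and Lss, enzymes of the mevalonate and squalene steps, had log2FC values of 2.24, 1.78 and 1.91 (adjusted p = 2.88e-05, 3.56e-05 and 0.000116). For each of these genes every cKO distal library exceeded every WT proximal library. The 3 genes that did not pass were Insig1, which retains the sterol sensor in the endoplasmic reticulum, Sc5d and Ebp (95% intervals -0.94 to 0.46, -0.21 to 0.92 and -0.43 to 0.60).

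Genes that BMP signals induce were lower in most cases. Of 11 measured, 6 were lower and 2 higher, with a median of -1.41. Id1, an inhibitor of basic helix-loop-helix factors, had 201, 152 and 232 scaled reads in cKO distal, against 1569, 1583 and 1408 in WT proximal libraries (log2FC -2.98, SE 0.22, adjusted p = 1.05e-06). Id3 had 253, 279 and 233 in cKO distal and 1678, 1565 and 1262 in WT proximal libraries (log2FC -2.55, SE 0.17, adjusted p = 4.79e-07), and Id2 was lower by a like amount (log2FC -2.38, SE 0.30, adjusted p = 8.92e-05). Smad6, an inhibitory SMAD that BMP signals induce, had 9.54, 10.8 and 25.5 in cKO distal and 479, 305 and 268 in WT proximal libraries (log2FC -4.52, SE 0.42, adjusted p = 7.62e-06). Smad7, the other inhibitory SMAD, had 395, 353 and 299 in cKO distal and 1159, 734 and 919 in WT proximal libraries (log2FC -1.41, SE 0.21, adjusted p = 0.000293). Smad9, a receptor-activated SMAD with at most 1 read in each cKO distal library, was also lower (log2FC -2.27, SE 0.46, adjusted p = 0.00266). For Id1, Id3 and Smad6 the cKO proximal means were 127 ± 25, 136 ± 19.3 and 6.37 ± 3.32, and the WT distal means 1246 ± 357, 1343 ± 119.7 and 236 ± 68.2 (SD, n = 3).

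The other 2 calls were higher. Id4, the remaining Id gene, had 58.3, 65.5 and 164 in cKO distal, against 27.4, 25.8 and 22.6 in WT proximal libraries (log2FC 1.73, SE 0.40, adjusted p = 0.00635), with cKO distal library 3 the highest. Hes1, a repressor that Notch also induces, had 453, 290.4 and 317 in cKO distal and 148, 175 and 159 in WT proximal libraries (log2FC 1.11, SE 0.25, adjusted p = 0.0059). Atoh8, Bambi and Msx1 did not pass (adjusted p = 0.824, 0.9 and 0.813) and were under 45 scaled reads in every library of the 2 groups.

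Several BMP ligands were higher, while most genes of their list did not pass. Of 27 ligands, receptors and antagonists, 6 were higher (22.2%) and 4 lower (14.8%), against 13.0% of all genes each way (median 0.36). Bmp3, a ligand that can act against other BMPs, had 4777, 3257 and 1348 in cKO distal, against 15.8, 62.9 and 91.4 in WT proximal libraries (log2FC 5.90, SE 0.56, adjusted p = 7.72e-06). Bmp4 had 78.4, 130.3 and 39.3 in cKO distal and 6.31, 6.73 and 3.22 in WT proximal libraries (log2FC 3.59, SE 0.53, adjusted p = 0.000308), and Bmp2 had 1869, 1318 and 1371 in cKO distal and 402, 314 and 354 in WT proximal libraries (log2FC 2.08, SE 0.20, adjusted p = 1.09e-05). None of these 3 ligands overlapped between groups. Bmp3 was also high in cKO proximal libraries, at 2516 ± 738, whereas Bmp4 was not, at 5.16 ± 3.73 (SD, n = 3). Bmp6 was higher (log2FC 2.22, SE 0.52, adjusted p = 0.00633), a call lost with a mean value of at least 10, and Bmp8a was lower, with 20.1, 19.9 and 48.9 in cKO distal and 329, 104 and 213 in WT proximal libraries (log2FC -2.80, SE 0.43, adjusted p = 0.000374). The signal-carrying genes Smad4, Smad1 and Acvr2a did not pass (95% intervals -0.20 to 0.57, 0.01 to 0.83 and -0.30 to 0.65); Smad1 passed without cKO distal library 3. The lower count was 2 without cKO distal library 1, cKO distal library 2 or WT proximal library 1, and 1 without both cKO libraries numbered 1; it was 2 with the mitochondrial share as a covariate.

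**Figure D4:**
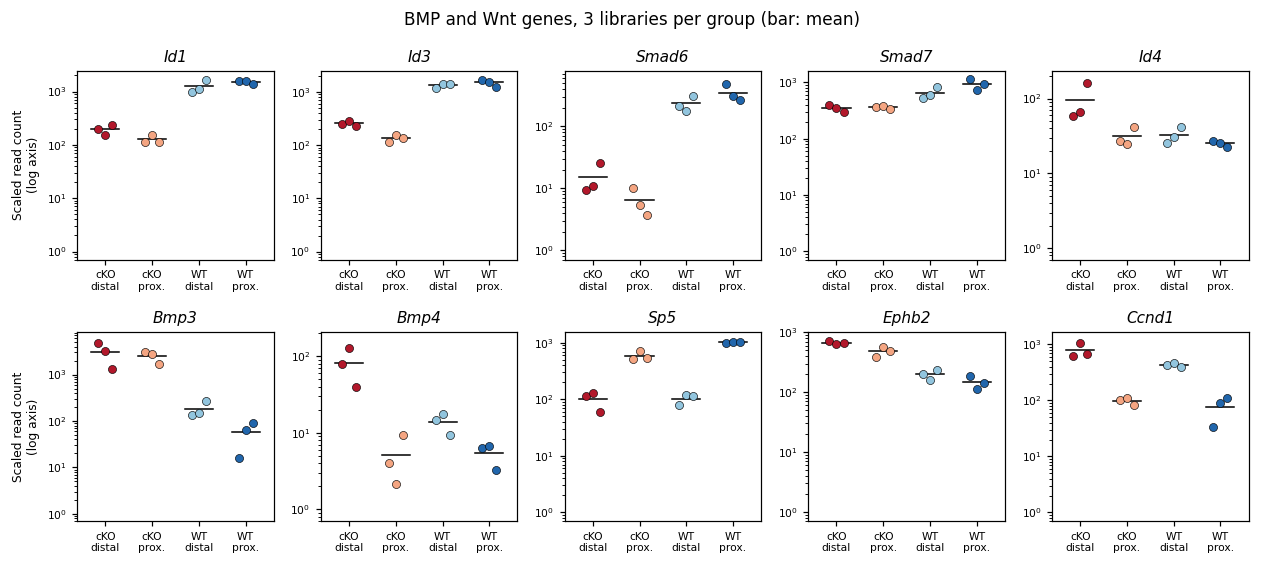
Scaled read count (log axis) of 10 BMP and Wnt genes in the 3 libraries of each group, one point per library and a bar at the mean, with groups ordered cKO distal, cKO proximal, WT distal and WT proximal. Id1, Id3, Smad6 and Smad7 are lower in both cKO groups than in WT proximal libraries, while Bmp3 and Ephb2 are higher in both. Sp5 is low and Ccnd1 high in both distal groups.

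Wnt target genes did not move together. Of 20, 7 were lower and 2 higher, with a median of -0.78. Sp5, a zinc finger target of Wnt, had 113, 129 and 58.5 scaled reads in cKO distal, against 1008, 1036 and 1024 in WT proximal libraries (log2FC -3.41, SE 0.27, adjusted p = 1.57e-06). Rnf43, a ubiquitin ligase that removes Wnt receptors, had 398, 299.5 and 488 in cKO distal and 981, 1220.1 and 1391 in WT proximal libraries (log2FC -1.61, SE 0.26, adjusted p = 0.000514). Notum, a secreted Wnt deacylase, was low in both groups, at 3.18, 1.66 and 1.06 in cKO distal and 36.8, 15.7 and 7.52 in WT proximal libraries (log2FC -2.63, SE 0.56, adjusted p = 0.00382). Ephb2, the ephrin receptor of crypt cells, had 709.8, 631 and 652 in cKO distal and 186, 114 and 143 in WT proximal libraries (log2FC 2.19, SE 0.22, adjusted p = 1.34e-05). Ccnd1, cyclin D1, had 632, 1079.5 and 676 in cKO distal and 33.7, 89.8 and 109 in WT proximal libraries (log2FC 3.46, SE 0.35, adjusted p = 1.35e-05). The 5 genes were free of overlap. By level over the 4 groups, Sp5 was low in both distal groups (means 593 ± 119 in cKO proximal and 103 ± 20.8 in WT distal libraries) and Ephb2 high in both cKO groups (means 478 ± 89.9 and 199.6 ± 39.6 in the same groups, SD, n = 3). Axin2, a feedback inhibitor and common Wnt readout, had 82.6, 122 and 273 in cKO distal and 213, 281 and 379 in WT proximal libraries and did not pass (adjusted p = 0.0555). It did pass without cKO distal library 3, without WT proximal library 1, and with TMM scaling, voom or the replicate numbers as a block. Sox9, a crypt factor, and Cd44, a crypt adhesion receptor, did not pass (0.0858 and 0.683; Sox9 passed without cKO distal library 3). Ascl2, a stem cell factor, was lower (log2FC -2.14, SE 0.60, adjusted p = 0.0176), a call lost without cKO distal library 1 or 2 or WT proximal library 3 (highest adjusted p 0.0815), with edgeR, DESeq2 or the mitochondrial share as a covariate and without both cKO libraries numbered 1. The lower count fell to 4 without WT proximal library 3, with edgeR, with DESeq2 or with a mean value of at least 10, and the higher count was 4 without cKO distal library 1.

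Some genes of stem cells and division were higher. Of 17 crypt base stem cell genes, 6 were higher and 4 lower (median 0.34). Smoc2, a matrix protein of the crypt base, had 479.9, 696 and 358 in cKO distal, against 57.9, 32.6 and 96.7 in WT proximal libraries (log2FC 3.10, SE 0.38, adjusted p = 6.61e-05). Lrig1, a growth factor receptor inhibitor of stem cells, had 557, 589.9 and 505 in cKO distal and 146, 128 and 202 in WT proximal libraries (log2FC 1.81, SE 0.23, adjusted p = 8.51e-05). Slc12a2, a chloride cotransporter of crypt cells, was higher (log2FC 1.90, SE 0.34, adjusted p = 0.00117), and Hopx, a homeodomain protein of reserve stem cells, was lower (log2FC -1.07, SE 0.24, adjusted p = 0.00526). Olfm4, a marker of dividing stem cells, had 203, 588 and 486 in cKO distal and 404, 114 and 978 in WT proximal libraries and did not pass (adjusted p = 0.918). The lower count of the list was 2 without cKO distal library 1 or cKO distal library 2 and 1 without WT proximal library 3, and it was 2 with edgeR, DESeq2, the 6 libraries alone or the mitochondrial share as a covariate. Of 38 cell cycle genes, 14 were higher (median 0.70). Kif23, a kinesin of cell division, had 204, 314 and 218 in cKO distal and 63.1, 87.6 and 84.9 in WT proximal libraries (log2FC 1.62, SE 0.24, adjusted p = 0.000327). The mitotic genes Cdc20 and Aurka had log2FC values of 1.32 and 0.97 (adjusted p = 0.00282 and 0.00723). The replication genes Pcna and Mcm6 did not pass, with 95% intervals of -0.53 to 0.11 and -1.13 to -0.07, and Mcm6 passed as lower without WT proximal library 1. Set against WT distal libraries in the same fit, cKO distal libraries did not differ in Kif23, Cdc20 or Aurka at the threshold (log2FC -0.56, -0.61 and -0.55). In that comparison Pcna and Mcm6 were lower (log2FC -0.47 and -1.45, adjusted p = 0.034 and 0.00091). Smoc2 and Lrig1 were higher there (log2FC 2.74 and 1.54, adjusted p = 0.00018 and 0.0003). In cKO distal library 1 the summed cell cycle level was the lowest of its group (5531, against 9984 and 8994 in libraries 2 and 3). The higher count was 22 without cKO distal library 1, 5 without cKO distal library 2, 7 without cKO distal library 3 and 6 without WT proximal library 1, and it was 8 with voom and 7 with the 6 libraries alone. Without WT proximal library 1, 1 cell cycle gene was lower.

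Reg3g, Reg3b and Duox2, antibacterial genes of the epithelium, were far higher in cKO distal than in WT proximal libraries, whereas Reg1, of the same list, was far lower. Of 15 genes of villus base defence, 8 were higher and 2 lower, with a median of 1.33. Reg3g, a lectin that kills Gram-positive bacteria, had 147620, 98393 and 35105 scaled reads in cKO distal, against 1579, 1614 and 1658 in WT proximal libraries (log2FC 5.63, SE 0.41, adjusted p = 9.54e-07). Reg3b, its paralogue, had 268100, 167360 and 39572 in cKO distal and 4466, 2249 and 4689 in WT proximal libraries (log2FC 5.07, SE 0.60, adjusted p = 5.9e-05). In both cases cKO distal library 3 was the lowest of its group and still above every WT proximal library. Duox2, the epithelial hydrogen peroxide oxidase, had 7528, 3679.8 and 3477 in cKO distal and 63.1, 21.3 and 21.5 in WT proximal libraries (log2FC 7.17, SE 0.50, adjusted p = 6.72e-07), and Duoxa2, its maturation factor, rose with it (log2FC 5.52, SE 0.51, adjusted p = 7e-06). Nos2, the inducible nitric oxide synthase, had 8753, 3945 and 2569 in cKO distal and 20, 30.3 and 18.3 in WT proximal libraries (log2FC 7.58, SE 0.61, adjusted p = 1.75e-06). Saa1, an acute-phase protein, had 269, 229.8 and 11.7 in cKO distal and 2.1, 1.12 and 1.07 in WT proximal libraries (log2FC 5.27, SE 0.86, adjusted p = 0.000617). Reg3a, Itln1 and Pigr, the receptor that carries IgA across the epithelium, did not pass (adjusted p = 0.349, 0.31 and 0.695), and Reg3a passed without cKO distal library 3. The 2 lower genes were Reg1, given above, and Reg4, another lectin of the family. Reads of Reg family members can be shared between copies.

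Paneth cell genes were higher in 7 of 19 cases (median 1.48). Defa21, an alpha-defensin, had 1339, 1565 and 3772 in cKO distal, against 9.47, 61.7 and 39.8 in WT proximal libraries (log2FC 6.06, SE 0.76, adjusted p = 9.42e-05). Defa20, Defa22 and Defa5 had log2FC values of 5.84, 6.12 and 4.17 (adjusted p = 0.00018, 0.000313 and 0.000771), and Defa32, outside the list, had 6.83 (1.57e-05). The defensins are near-identical copies, so single members are uncertain. Lyz1, the Paneth cell lysozyme, had 3088, 3461 and 12460 in cKO distal and 896, 2032 and 3353 in WT proximal libraries and did not pass (0.133), nor did Defa24 (0.319). The groups overlapped for both. Spink4, a peptide of secretory cells, was higher (log2FC 2.50, SE 0.27, adjusted p = 2.38e-05). Summed over the list, levels were 22830 to 53080 in cKO distal and 7763 to 14010 in WT proximal libraries, with library 3 the highest in each group.

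Goblet cell genes were higher in 6 and lower in 1 of 20 (median 0.21). Guca2a, the guanylate cyclase ligand guanylin, had 22528, 14449 and 23472 in cKO distal, against 498, 442 and 536 in WT proximal libraries (log2FC 5.32, SE 0.38, adjusted p = 8.67e-07). The mucus genes Fcgbp, Zg16 and Clca1 did not pass (95% intervals -1.58 to 1.08, -1.68 to 0.07 and -0.91 to 0.73), although Zg16 passed as lower in DESeq2 and voom. St6galnac1, which adds sialic acid to mucin, had 0 reads in all 3 cKO distal libraries and 68.4, 49.4 and 52.7 in WT proximal libraries, at least 18.9-fold lower (adjusted p = 1.16e-06). In cKO proximal libraries St6galnac1 averaged 1.31 ± 0.479, and in WT distal libraries 211 ± 75.4 (SD, n = 3). The higher count was 3 without cKO distal library 3 or WT proximal library 3 and 2 without both cKO libraries numbered 1.

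Most genes of the rare hormone cells of the epithelium were lower. Of 29 enteroendocrine genes, 16 were lower and 3 higher (median -1.39). Tph1, which makes serotonin in enterochromaffin cells, had 50.9, 39.8 and 64.9 in cKO distal, against 1142, 911 and 722 in WT proximal libraries (log2FC -4.13, SE 0.36, adjusted p = 3.34e-06). Cck, cholecystokinin, had 175, 211 and 156 in cKO distal and 4143, 2355 and 1788 in WT proximal libraries (log2FC -3.85, SE 0.29, adjusted p = 1.05e-06). Sct, secretin, had 161, 139 and 158 in cKO distal and 2247, 1702 and 1189 in WT proximal libraries (log2FC -3.43, SE 0.28, adjusted p = 2.33e-06). Ghrl, Sst and Gip, the genes of ghrelin, somatostatin and the incretin GIP, had log2FC values of -3.42, -2.76 and -2.62 (adjusted p = 1.38e-06, 2.67e-05 and 0.000152). No library of one group reached the other for these 6 genes. The 3 higher genes, named after their values were seen, were Gcg, Tac1 and Nts. Gcg, the proglucagon gene of L cells, had 255, 293 and 267 in cKO distal and 86.3, 85.3 and 53.7 in WT proximal libraries (log2FC 1.87, SE 0.26, adjusted p = 0.00021). Tac1, the substance P precursor, was higher (log2FC 1.65, SE 0.34, adjusted p = 0.00283), and Nts, neurotensin, was higher (log2FC 1.23, SE 0.31, adjusted p = 0.0105), a call lost without WT proximal library 2 (highest adjusted p 0.0547). Pyy, the peptide YY gene, which L cells also express, was lower, with 74.2, 60.6 and 89.3 in cKO distal and 276, 242 and 186 in WT proximal libraries (log2FC -1.64, SE 0.38, adjusted p = 0.00608), without overlap, and was also named after its value was seen. The general granule gene Chga and the lineage factor Insm1 did not pass (adjusted p = 0.0803 and 0.277).

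Tuft cells are chemosensory cells that respond to parasites. Of 23 tuft cell genes, 17 were lower, with a median of -2.38, and summed levels were 1399 to 2718 in cKO distal and 8054 to 18960 in WT proximal libraries. Hpgds, a prostaglandin synthase, had 43.4, 29.9 and 48.9 in cKO distal and 225, 179.6 and 242 in WT proximal libraries (log2FC -2.39, SE 0.26, adjusted p = 2.6e-05). Avil, an actin-binding protein, and Rgs13, a regulator of G proteins, were lower (log2FC -2.95, SE 0.58, adjusted p = 0.00226, and log2FC -2.39, SE 0.46, adjusted p = 0.00208). Dclk1, a kinase commonly stained to mark these cells, was named after its value was seen, with 272, 222 and 89.3 in cKO distal and 1653, 619.6 and 750.2 in WT proximal libraries (log2FC -2.38, SE 0.56, adjusted p = 0.00668). cKO distal library 3 was the lowest and WT proximal library 1 the highest for Dclk1. Means of Dclk1 were 382 ± 134 in cKO proximal and 494 ± 434 in WT distal libraries (SD, n = 3). Tas1r3, a taste receptor chain, and Ltc4s and Alox5ap, of leukotriene synthesis, did not pass (adjusted p = 0.438, 0.663 and 0.234).

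Villus tip genes were lower in 8 and higher in 1 of 20 (median -0.81). Ada, the adenosine deaminase of the villus, had 125, 136 and 1276 in cKO distal, against 83155, 41188 and 37974 in WT proximal libraries (log2FC -7.50, SE 0.71, adjusted p = 7.62e-06). Enpp3, an ectonucleotidase, had 107, 50.6 and 1612 in cKO distal and 22858, 6917 and 8584 in WT proximal libraries (log2FC -5.73, SE 0.91, adjusted p = 0.000531). Nt5e, which makes adenosine outside the cell, was lower (log2FC -3.37, SE 0.62, adjusted p = 0.00141), as was Slc28a2, a purine nucleoside transporter (log2FC -4.05, SE 0.89, adjusted p = 0.00439). For Ada and Enpp3 cKO distal library 3 stood far above libraries 1 and 2 of its group and below every WT proximal library. Krt20, a keratin of mature villus cells, had 27346, 20687 and 16129 in cKO distal and 45873, 33332 and 33343 in WT proximal libraries without overlap and did not pass (adjusted p = 0.0848), except with TMM scaling, edgeR, DESeq2, voom and the mitochondrial share as a covariate. Ereg, an EGF receptor ligand, was higher, with 389.9, 542 and 534 in cKO distal and 55.8, 26.9 and 19.3 in WT proximal libraries (log2FC 3.93, SE 0.38, adjusted p = 9.23e-06), and 2 genes were higher without WT proximal library 1. Most genes of brush border structure did not pass: 3 of 21 were higher (median 0.01), and the interval lay within 2-fold for 9 of them. The higher count fell to 1 without any 1 of cKO distal libraries 1 and 2 or WT proximal libraries 2 and 3, and 1 gene was lower without cKO distal library 1. Other settings gave lower genes as well: 3 with TMM scaling or DESeq2, 2 with edgeR or voom, and 5, beside 1 higher, with the mitochondrial share as a covariate. Without overlap, 5 of the 21 genes were lower and 2 higher, against 19.1% and 20.5% of all genes.

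**Figure D5:**
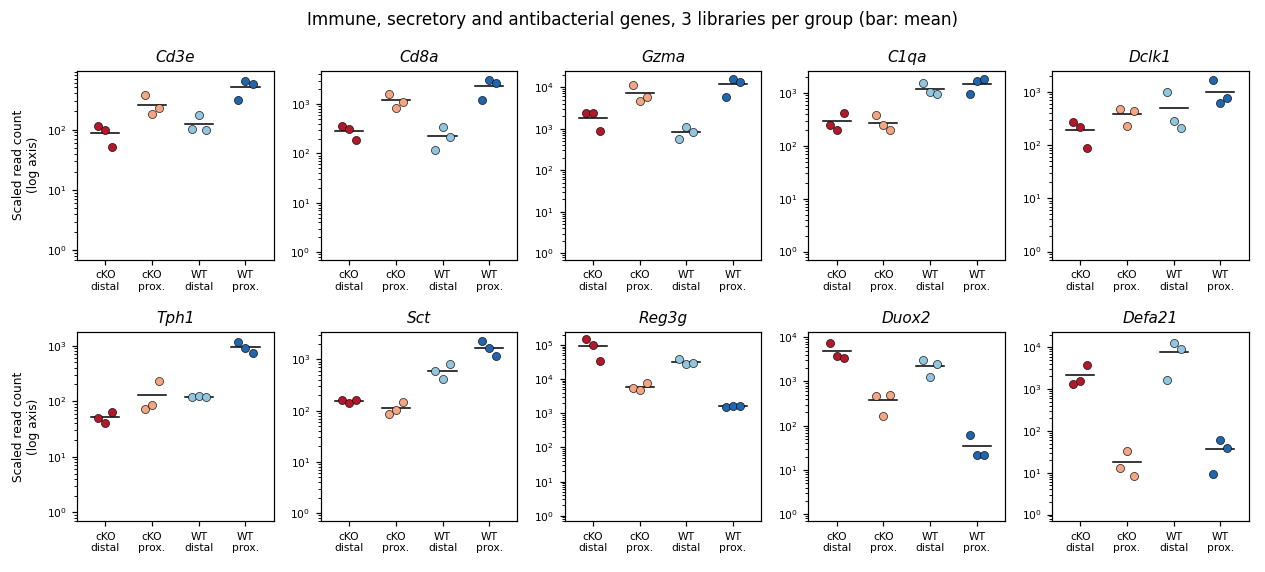
Scaled read count (log axis) of 10 genes of immune, sensory and antibacterial cells in the 3 libraries of each group, one point per library and a bar at the mean, with groups ordered cKO distal, cKO proximal, WT distal and WT proximal. Cd3e, Cd8a, Gzma, C1qa, Dclk1, Tph1 and Sct are lower in cKO distal than in WT proximal libraries, and Reg3g, Duox2 and Defa21 are higher.

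T cell transcripts were lower throughout. All 21 genes of T cells and intraepithelial lymphocytes were lower, against 13.0% of all genes, with a median of -2.41, and summed levels were 3074 to 6438 in cKO distal and 17500 to 45270 in WT proximal libraries. Cd8a, a co-receptor of killer and intraepithelial T cells, had 368, 315 and 183 in cKO distal, against 1237, 3086 and 2663 in WT proximal libraries (log2FC -2.96, SE 0.41, adjusted p = 0.000207). Cd3e, a chain of the T cell receptor complex, had 117, 97.9 and 51 in cKO distal and 304, 639 and 565 in WT proximal libraries (log2FC -2.50, SE 0.38, adjusted p = 0.000337). Itgae, the integrin that holds lymphocytes in the epithelium, had 359, 378 and 229.7 in cKO distal and 1056, 2409.9 and 2404 in WT proximal libraries (log2FC -2.54, SE 0.38, adjusted p = 0.000333). WT proximal library 1 was the lowest of its group for these 3 genes and exceeded every cKO distal library. The means of Cd8a were 1187 ± 405 in cKO proximal and 224 ± 111 in WT distal libraries (SD, n = 3), the second as low as in cKO distal libraries. With 1 library left out, 19 to 21 genes of the list were lower.

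B cell and plasma cell genes were lower in 17 and higher in 1 of 23 (median -2.03), and the lower count was 11 without cKO distal library 2 or WT proximal library 3, or with the mitochondrial share as a covariate. Jchain, which joins IgA, had 289, 109 and 169 in cKO distal, against 889, 1768 and 1797 in WT proximal libraries (log2FC -3.01, SE 0.48, adjusted p = 0.000508). Igkc, the kappa light chain, had 680.2, 197 and 553 in cKO distal and 2050.1, 5050 and 4312 in WT proximal libraries (log2FC -3.07, SE 0.53, adjusted p = 0.000918), and its reads can be shared among antibody genes. Jchain and Igkc were also lower in cKO distal than in WT distal libraries (log2FC -4.39 and -4.69, adjusted p = 4.38e-05 and 5.12e-05). Against cKO proximal libraries neither passed (log2FC -0.48 and -0.59, adjusted p = 0.599 and 0.541). The higher gene of the list was Sdc1 (log2FC 1.43, SE 0.27, adjusted p = 0.00187), a syndecan that epithelium also carries. Pax5 and Cd79a, of B cells, did not pass (adjusted p = 0.0609 and 0.0545), and WT proximal library 3 was the highest for both. Each passed without cKO distal library 3 or WT proximal library 2, and Cd79a also without WT proximal library 1. Myeloid genes were lower in 12 of 22 (median -1.42). C1qa, a complement chain of macrophages, had 245, 199 and 422 in cKO distal and 955, 1687 and 1800.2 in WT proximal libraries (log2FC -2.38, SE 0.32, adjusted p = 0.000163), and Cx3cr1, the fractalkine receptor, was lower (log2FC -2.19, SE 0.39, adjusted p = 0.00118). Lyz2 and Itgam did not pass (adjusted p = 0.0939 and 0.926).

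Stromal markers passed about as often as, or less often than, all genes, of which 13.0% passed in each direction. Of 19 fibroblast and telocyte genes, 3 were lower (15.8%) and 1 higher (5.26%; median -0.44), with summed levels of 7843 to 11700 in cKO distal and 7573 to 27180 in WT proximal libraries. Adamdec1, a protease of villus fibroblasts and macrophages, had 26.5, 16.6 and 154 in cKO distal, against 438, 869.9 and 1218 in WT proximal libraries (log2FC -4.20, SE 0.64, adjusted p = 0.000402). The collagen genes Col3a1 and Col1a2 did not pass (adjusted p = 0.445 and 0.726), and WT proximal library 1 was the highest for both. Pdgfrb, a receptor of pericytes, was higher (log2FC 1.71, SE 0.42, adjusted p = 0.0091), a call lost without both cKO libraries numbered 1. The lower count was 1 without cKO distal library 1 or 2 or WT proximal library 1 or 2, and with the replicate numbers as a block or the mitochondrial share as a covariate. Of 14 smooth muscle genes, 2 were higher (14.3%; none without cKO distal library 3 and 1 without WT proximal library 1 or 2, with edgeR or with voom), and their summed level was 1637 to 2470 in cKO distal and 1476 to 2233 in WT proximal libraries. The defining genes Myh11 and Acta2 stayed under 70 scaled reads in every library of the 2 groups.

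Some genes of energy metabolism were lower, with a share near that of all genes in the respiratory chain. Of 28 genes of fatty acid oxidation and ketogenesis, 7 were lower and 3 higher, against 13.0% of all genes each way (median -0.43). Other settings raised the lower count, to 15 with TMM scaling or DESeq2 and to 14 with edgeR, voom or the mitochondrial share as a covariate. Cyp4a10, a fatty acid hydroxylase, had 3.18, 0.83 and 1.06 in cKO distal, against 272, 366 and 268 in WT proximal libraries (log2FC -6.90, SE 0.48, adjusted p = 7.6e-07). Pdk4, a kinase that spares glucose, was lower (log2FC -2.68, SE 0.27, adjusted p = 1.34e-05). Vnn1, a pantetheinase, was higher (log2FC 2.60, SE 0.33, adjusted p = 9.91e-05). The oxidation enzymes Hadh and Hadha did not pass (95% intervals -1.24 to -0.08 and -0.94 to -0.04), although both passed as lower with TMM scaling and without cKO distal library 1. The higher count was 1 without cKO distal library 3 or WT proximal library 3. Of 35 nuclear genes of the respiratory chain, 6 were lower (17.1%, against 13.0% of all genes, median -0.36), and for 25 the interval lay within 2-fold. Uqcrfs1, the Rieske protein of complex III, had 3884, 3989 and 2367 in cKO distal and 7198, 8213 and 7052 in WT proximal libraries (log2FC -1.17, SE 0.23, adjusted p = 0.00217). The lower count was 3 without cKO distal library 2 or 3 or WT proximal library 2 or 3, 11 with DESeq2 and 10 with voom or the mitochondrial share as a covariate. Of 12 mitochondrially encoded mRNAs 1 was lower, mt-Nd3 (log2FC -0.90, SE 0.28, adjusted p = 0.0302), lost without cKO distal library 1 or 2 or WT proximal library 2 or 3 (highest adjusted p 0.133), with the 6 libraries alone or the mitochondrial share as a covariate and without both cKO libraries numbered 1; cKO distal library 3 had the highest summed level of its group, 4479000, against 2150000 and 1457000 in libraries 1 and 2.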

How the data were processed

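Total RNA of mouse small intestine was extracted with Trizol and amplified to cDNA with an Ovation kit (NuGEN), per the labels' protocols, in 12 libraries, and 1 table of 17175 genes was deposited. The authors aligned reads to mm10 with STAR and used DESeq2 1.28.1, per the submitters' processing notes; the version of STAR, the counting tool, strand setting and row filter are not given in the sources used here. The deposited signal is a read count plus 1, divided by a size factor per library: each value was a whole multiple of the smallest in its column, within 1e-08. The table also holds a log2 fold change, a test score and p-values of a DESeq2 comparison that the authors deposited; they were not used here. Reads were recovered from the steps. Every adjusted p is from limma 3.58.1 (trend, 4 group means, 12 libraries, R 4.3.3) on log2(value + 1), with Benjamini-Hochberg adjustment; a filter of a value of at least 1 in 3 libraries removed no gene. The method was tested on simulated data. Alternatives used edgeR 4.0.16 and DESeq2 1.42.0 on the recovered reads, voom, TMM, pseudocounts of 0 and 5, a mean of at least 10, the mitochondrial share as a covariate, the 6 libraries alone and left-out libraries. Same-numbered cKO distal and WT proximal libraries did not deviate together (r = 0.051, -0.011 and 0.055) and were not paired. They differ in genotype, so this check cannot show whether the proximal and distal segments of a mouse share a number. Such a pairing within a genotype was not tested, and the main fit treats the 12 libraries as independent.

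The comparison and the 41 gene lists (765 of 812 members measured) were chosen with earlier results of these data known. Named genes are Bmpr1a, the 12 largest changes each way among genes that passed (mean log2 CPM 2 or more, no overlap between the groups, predicted and clone-named genes left out), up to 6 smallest p-values and 3 abundant genes that did not pass per list, the whole BMP-induced, bile acid and regional factor lists, and Fabp1, Fabp2 and Fabp6 for their sequences. Some genes that this rule names are not reported here; they stay in the counts. Genes named outside this rule, also Reg4 and the epithelial markers, were chosen after their values were seen. Identifiers matched GENCODE M21 for 17168 genes; promoters are from RefSeq (GRCm38.p6). Close gene copies (immunoglobulin, defensin, Reg, Gst, Cyp and alkaline phosphatase genes) and overlapping genes may share reads. Floors of 3 reads cover counting error only.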

Additional observations from a re-analysis of the deposited data

How the results depend on the processing

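Each of the 18 alternatives gave between 3041 and 5146 genes past the threshold, against 4470. No call of a listed or named gene reversed its direction. The median log2 fold change of all genes did change sign, from 0.04 to -0.047 with voom. Some list medians near 0 also changed sign between alternatives, such as that of brush border structure (-0.327 to 0.212). Leaving out 1 library at a time gave 3213 to 4179 genes in all, 1492 to 2116 higher and 1696 to 2063 lower. Without both cKO libraries numbered 1, among them the cKO distal library with no Y-linked reads, 1383 genes were higher and 1658 lower; the cause was not tested, although fewer libraries entered that fit. The share of calls that were higher lay between 42.9% (voom) and 51.9% (mean value at least 10). With the replicate numbers as a block (replicate block), 4490 genes passed, 2228 higher and 2262 lower. Whether the numbers pair libraries of the same genotype was not tested. Of the 4470 genes, 2239 passed in the same direction in every alternative and 2549 in each of the 6 fits with 1 library left out. Among 369 listed or named genes that passed, 107 lost the call in at least 1 alternative and 97 of them on leaving out 1 library. Another 106 passed only in an alternative. List counts moved by over 1.5 times in 151 of 1476 comparisons; most stand beside the lists above. With 3 libraries a group, small differences in genes with few reads were not detectable at this depth.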

Other observations

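Colon epithelium genes split, with 5 of 13 higher and 3 lower (median log2FC 0.21). Car4, a carbonic anhydrase of the brush border, had 16464, 7593 and 3872 scaled reads in cKO distal, against 356, 458 and 749 in WT proximal libraries (log2FC 3.98, SE 0.76, adjusted p = 0.00181), with no overlap. Its means were 1712 ± 1296 in cKO proximal and 676 ± 254 in WT distal libraries (SD, n = 3), both below every cKO distal library. Slc37a2, a sugar phosphate exchanger placed on the same list, had 26.5, 33.2 and 56.4 in cKO distal and 3949.6, 4249.6 and 5654 in WT proximal libraries (log2FC -6.92, SE 0.32, adjusted p = 2.02e-08). Aqp8, a water channel, had 1.06, 1.66 and 3.19 in cKO distal and 262, 58.4 and 33.3 in WT proximal libraries (log2FC -4.84, SE 0.76, adjusted p = 0.000479), with WT proximal library 1 the highest. Slc26a3, the apical chloride and bicarbonate exchanger, had 5045, 4317 and 2963 in cKO distal and 2390, 2074 and 2204 in WT proximal libraries without overlap and did not pass (adjusted p = 0.0516), although it passed without cKO distal library 3.

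Of 9 genes of MHC class II, 2 were lower and 7 did not pass (median -0.31). Cd74, the invariant chain, had 38916, 8783 and 3666 in cKO distal, against 6710, 14104 and 14741 in WT proximal libraries (adjusted p = 0.972), so the cKO distal libraries spread above and below the WT proximal ones, with library 1 far the highest. The 2 lower genes, H2-Oa and H2-Ob, are known from B cells, and neither passed without cKO distal library 2 or WT proximal library 3, with voom or with the mitochondrial share as a covariate, and 1 without cKO distal library 1 or WT proximal library 2. Of 20 interferon response genes, 6 were lower (median -0.92), and 3 were lower without WT proximal library 2. Gbp4, a guanylate-binding protein, had 39.2, 43.1 and 42.5 in cKO distal and 125, 253 and 255 in WT proximal libraries (log2FC -2.24, SE 0.41, adjusted p = 0.00145). Isg15, a ubiquitin-like protein, was highest in WT proximal library 2, with 284, 358 and 293 in cKO distal and 984, 2526 and 364 in WT proximal libraries (log2FC -1.64, SE 0.57, adjusted p = 0.0486), a call lost without cKO distal library 1, 2 or 3 or WT proximal library 1 or 2 (highest adjusted p 0.225), with TMM scaling, pseudocount 5, a mean value of at least 10, voom, the 6 libraries alone, the replicate numbers as a block or the mitochondrial share as a covariate and without both cKO libraries numbered 1.

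Of 20 immediate early and stress genes, 3 were higher and 3 lower (median -0.27), shares near the 13.0% of all genes each way. The higher count was 1 without cKO distal library 1 or WT proximal library 3. Fos, a transcription factor of the AP-1 complex, had 1801, 1128 and 1093 in cKO distal, against 6006, 2365 and 3370.4 in WT proximal libraries (log2FC -1.48, SE 0.31, adjusted p = 0.00371). Asns, the asparagine synthetase of the amino acid stress response, had 327, 269.7 and 469 in cKO distal and 199.9, 174 and 160.1 in WT proximal libraries (log2FC 0.96, SE 0.21, adjusted p = 0.00474). Of 16 endothelial genes, 2 were higher (12.5%) and 3 lower (18.8%), near the 13.0% of all genes each way. Lyve1, a hyaluronan receptor of lymphatic vessels and some macrophages, had 112, 87.1 and 60.6 in cKO distal and 29.5, 30.3 and 21.5 in WT proximal libraries (log2FC 1.61, SE 0.31, adjusted p = 0.00188), and Pecam1, an adhesion molecule of vessels and leukocytes, had 43.4, 35.7 and 67 in cKO distal and 91.6, 176 and 275 in WT proximal libraries (log2FC -1.78, SE 0.43, adjusted p = 0.00791). Of 9 genes of enteric neurons and glia, 2 were lower. Of 7 erythrocyte genes, 0 passed in limma, edgeR or DESeq2, 1 passed as lower with the replicate numbers as a block, and 0 had an unadjusted p under 0.05 (median -0.89). Of the 4 Y-linked genes, 0 passed in limma, edgeR or DESeq2, and 0 had an unadjusted p under 0.05; cKO distal library 1 had 0 reads of them.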
